A study of Homo sapiens with 27 samples.

Results

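The 10 genes described here encode heterogeneous nuclear ribonucleoproteins (hnRNPs). They are HNRNPA1 (ENSG00000135486), HNRNPA2B1 (ENSG00000122566), HNRNPC (ENSG00000092199), HNRNPD (ENSG00000138668), HNRNPDL (ENSG00000152795), HNRNPH1 (ENSG00000169045), HNRNPH3 (ENSG00000096746), HNRNPL (ENSG00000104824), HNRNPM (ENSG00000099783) and HNRNPU (ENSG00000153187). They were picked out by Ensembl gene ID and not by a measured value, but the list was made with earlier results of these data known. They are 10 of the 16733 genes with signals. RNA of A549, an established line of lung adenocarcinoma cells, was hybridized to HTA 2.0 arrays, whose probes cover exons and the junctions between them. Cells were treated with Lipofectamine alone (a transfection reagent), with scramble siRNA (a control siRNA) or with SRSF1 siRNA, which targets the splicing factor SRSF1. Each condition had 3 samples with 3 hybridizations each, 27 hybridizations in all. All samples are of the same unsorted line, and dose and time of treatment are not given in the sources used here. The samples of a condition are biological replicates by the study's methods. Neither these nor the labels say whether each was a separate culture, so p-values measure the spread between these samples. Over the 10 genes, the mean SD of the gene signal was 0.02 to 0.14 between the single hybridizations of a sample. It was 0.02 to 0.09 between the samples of a condition, each averaged over its 3 hybridizations, so these SDs are of unlike values. The part of repeat hybridization in the spread between samples was not tested.

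The hnRNPs bind nascent RNA in the nucleus and act in splicing, 3′ end choice, export and decay of mRNA. Several of them, HNRNPA1 above all, are known to oppose SR proteins such as SRSF1 in the choice of splice sites. Transcripts of many hnRNP genes have alternative exons or introns that lead to nonsense-mediated decay, the pathway that destroys mRNAs with early stop codons, and some hnRNPs regulate their own level this way.

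The deposited signals describe a gene by splicing events. An event has a reference path, shared by the isoforms of the event, and 2 alternative paths, path 1 and path 2, each taken by some of the isoforms. The 10 genes had 55 of the 73554 events and 165 of the 220662 path signals. Events of 1 gene overlap, so only 147 of the 165 path signals were distinct. For example, path 1 of HNRNPA2B1 event 9 carried the same values as the reference of events 11 and 12. Event numbers are those of the deposited IDs, and the type and position of each event were not analysed here. Levels are log2 signals averaged over the hybridizations of a sample, and a signal is set only against the same signal in other samples, since probes differ in affinity. The median path signal of an array ranged from 6.23 to 6.33 under Lipofectamine, from 6.24 to 6.27 under scramble siRNA and from 6.25 to 6.30 under SRSF1 siRNA. The signal of SRSF1 and cell type markers were not analysed here, because no table used here pairs their names with the gene IDs.

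The first comparison asked how the level of each hnRNP gene differed between SRSF1 siRNA and scramble siRNA. HNRNPA1 rose, 5 genes fell (HNRNPH3, HNRNPD, HNRNPH1, HNRNPA2B1 and HNRNPM), and HNRNPC, HNRNPDL, HNRNPL and HNRNPU were not called. The gene signal was the mean of the reference paths of a gene's events, and calls were made with limma at a Benjamini-Hochberg adjusted p under 0.05 over 12545 genes. Of these genes 28.5% were called higher and 27% lower, so 1 of 10 higher and 5 of 10 lower stood against those shares. The median log2 change was -0.24 over the 10 hnRNP genes and 0.04 over all genes tested. In 6 of the 10 genes the samples of both conditions did not overlap, which held for 65.3% of all genes tested.

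**Figure D1:**
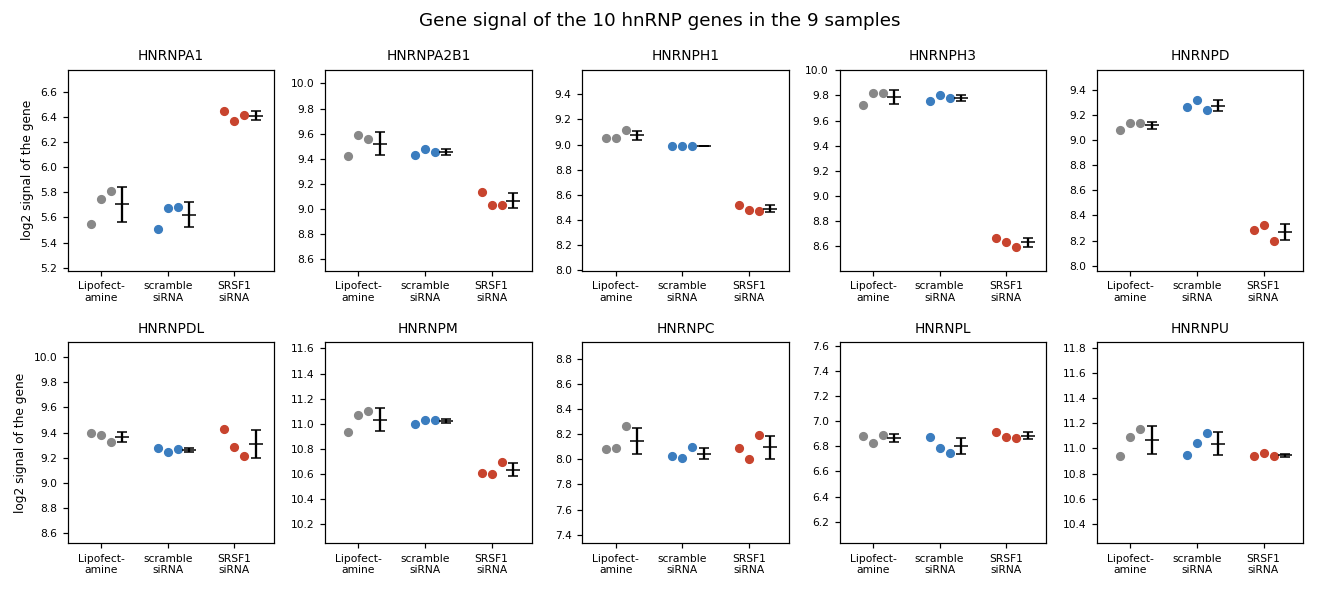
Gene signal (log2, mean of the reference paths) of each hnRNP gene in the 3 samples of each condition; points are samples, and the black bar is the mean with its SD. All panels span the same range of log2 signal; HNRNPA1 is higher and HNRNPA2B1, HNRNPH1, HNRNPH3, HNRNPD and HNRNPM are lower in all 3 SRSF1 siRNA samples.

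HNRNPA1 and HNRNPA2B1 encode the A and B type core proteins, which bind UAG-containing RNA and often repress exons. The HNRNPA1 gene signal was 5.51, 5.68 and 5.69 in the scramble siRNA samples, 5.55, 5.75 and 5.81 with Lipofectamine, and 6.44, 6.37 and 6.42 with SRSF1 siRNA. All 3 SRSF1 siRNA samples lay above the 6 others. The log2 change from scramble siRNA was 0.79 (SE 0.07, adjusted p = 1.3e-06). All 3 scramble siRNA samples and all but the highest Lipofectamine sample lay below the threshold of expression of 5.77, so no fold is given. This threshold is the 25% quantile of the highest reference signals. Events 15 and 16 share a reference, counted for each in the mean, that was over the threshold only in SRSF1 siRNA samples. The gene signal itself passed the filter also through the highest Lipofectamine sample. Its mean still rests in part on that shared reference, so the separation of the gene signal supports nothing by itself. RefSeq lists 75 pseudogenes named for HNRNPA1, more than for any of the other 9 genes, and the part of such copies in its signals was not tested.

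The HNRNPA2B1 gene signal was 9.43, 9.48 and 9.46 with scramble siRNA and 9.13, 9.03 and 9.03 with SRSF1 siRNA, with no overlap. It fell by 0.39 on the log2 scale (SE 0.05, adjusted p = 5.7e-05). Its reference paths did not move alike. The distinct ones of its tested events had log2 changes between -1.11 and 0.26, and taking their median in place of the mean gave a change of -0.05 (adjusted p = 0.50).

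HNRNPH1 and HNRNPH3 encode H type proteins, which bind runs of G in exons and introns. HNRNPH3 had the lowest log2 change of the 10 genes. Its signal was 9.76, 9.80 and 9.78 with scramble siRNA, 9.73, 9.82 and 9.82 with Lipofectamine, and 8.66, 8.64 and 8.59 with SRSF1 siRNA. It fell by 1.15 (SE 0.05, adjusted p = 1.8e-09), a signal 2.22-fold lower. The HNRNPH1 signal was 8.99 in each of the scramble siRNA samples, and 8.52, 8.48 and 8.47 with SRSF1 siRNA. It fell by 0.50 (SE 0.04, adjusted p = 8.9e-07), also with no overlap. With the mean over all 3 paths of each event the HNRNPH1 change was -0.20 and still called.

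HNRNPD, also called AUF1, binds AU-rich elements and regulates mRNA decay. Its signal was 9.26, 9.32 and 9.24 with scramble siRNA and 8.29, 8.32 and 8.20 with SRSF1 siRNA. It fell by 1.00 (SE 0.05, adjusted p = 6.9e-09), to a signal 2.01-fold lower. The reference paths of HNRNPD did not move alike, with log2 changes from -2.52 to 0.03 over all its events. The gene signal fell in every alternative run and was called in each, with changes from -1.42 to -0.74. HNRNPDL is the close paralog of HNRNPD, and RefSeq (GRCh38.p14) places both on chromosome 4 with no protein-coding gene between them. Its signal was 9.28, 9.24 and 9.27 with scramble siRNA and 9.43, 9.28 and 9.21 with SRSF1 siRNA, so the samples overlapped. The change was 0.05 (SE 0.06, adjusted p = 0.51), beside reference paths of its tested events that ranged from -0.29 to 0.46.

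HNRNPM, which binds GU-rich RNA, had a signal of 11.00, 11.03 and 11.03 with scramble siRNA and 10.61, 10.60 and 10.70 with SRSF1 siRNA. It fell by 0.38 (SE 0.05, adjusted p = 5.2e-05), and its 3 reference paths fell by similar amounts, with log2 changes from -0.42 to -0.35. HNRNPC, which binds runs of U and packages nascent transcripts, had a change of 0.05 (SE 0.06, adjusted p = 0.54). HNRNPL, which binds CA repeats, had a change of 0.09 (SE 0.05, adjusted p = 0.15), and with the median of its reference paths the change was 0.23 (adjusted p = 0.014), past the threshold. HNRNPU, a scaffold protein that binds both chromatin and RNA, had a change of -0.09 (SE 0.06, adjusted p = 0.23). In these 3 genes and HNRNPDL the SRSF1 siRNA and scramble siRNA samples overlapped.

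**Figure D2:**
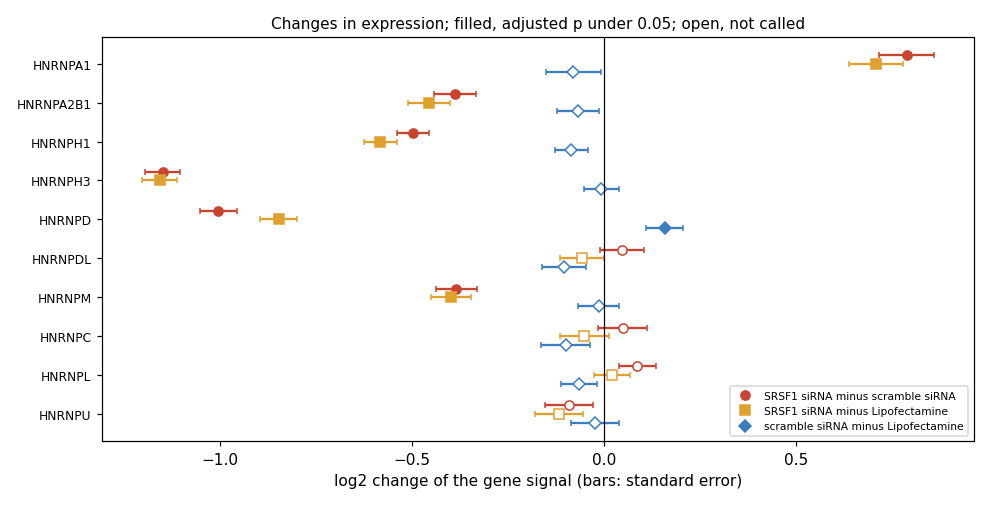
Log2 change of the gene signal of each hnRNP gene in the 3 comparisons, with standard errors as bars; filled symbols have an adjusted p under 0.05. Both comparisons with SRSF1 siRNA put HNRNPA1 at 0.79 and 0.71 and HNRNPH3 at -1.15 and -1.16, while scramble siRNA minus Lipofectamine stays between -0.10 and 0.16 in all 10 genes.

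Between the controls, scramble siRNA and Lipofectamine, only HNRNPD was called. Its signal was 9.08, 9.13 and 9.13 with Lipofectamine, below the 3 scramble siRNA samples, and the change was 0.16 (SE 0.05, adjusted p = 0.039). Over all genes 11.1% were called higher and 9.02% lower. The call did not hold in 7 of the 9 fits that left out 1 sample, where the adjusted p reached 0.15. The direction is opposite to that with SRSF1 siRNA, so the HNRNPD fall was smaller against Lipofectamine than against scramble siRNA.

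SRSF1 siRNA against Lipofectamine shares its SRSF1 siRNA samples with the first comparison and is not independent of it. HNRNPA1 was again higher, by 0.71 (SE 0.07, adjusted p = 4e-06), against 27.7% of all genes called higher. The genes called lower were HNRNPH3 at -1.16 (adjusted p = 2.2e-09), HNRNPD at -0.85 (3.3e-08), HNRNPH1 at -0.58 (2.7e-07), HNRNPA2B1 at -0.46 (1.7e-05) and HNRNPM at -0.40 (4.5e-05), 5 of 10 beside 24.1% of all genes. The other 4 genes had changes from -0.12 in HNRNPU to 0.02 in HNRNPL, and none was called or had an unadjusted p under 0.05. HNRNPU was called without Lipofectamine sample 1, at -0.18 (adjusted p = 0.024).

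The next comparison asked in which events the alternative paths changed in opposite directions, which is the study's criterion for differential splicing. Of the 55 events of the hnRNP genes, 39 had all 3 paths over the threshold of expression in at least 1 sample and were tested. In the other 16, path 2 was under it in 8, path 1 in 7, and both path 2 and the reference in 1. In 4 of the 39, a path was over it only in SRSF1 siRNA samples, so they were tested through the condition in which that path was high. These were HNRNPA1 events 15 and 16 (the reference), HNRNPA2B1 event 11 (path 1) and HNRNPD event 3 (path 1). For SRSF1 siRNA minus scramble siRNA, 9 of the 39 events were called, beside 8.35% of the 25805 events tested in all genes. They lay in 4 genes, 3 in HNRNPA2B1 and 2 each in HNRNPDL, HNRNPH1 and HNRNPH3. Path 1 had the positive change and path 2 the negative one in 6, and the reverse held in 3, with both paths called singly in 7 of the 9. HNRNPA2B1 event 11, counted in the 6 and in the 7, was tested only through SRSF1 siRNA samples, so its call is no support. Of the 19 tested events of HNRNPA1, HNRNPC, HNRNPD, HNRNPL, HNRNPM and HNRNPU, 0 were called in limma, and 1 (HNRNPC event 11) had an unadjusted p under 0.05.

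**Figure D3:**
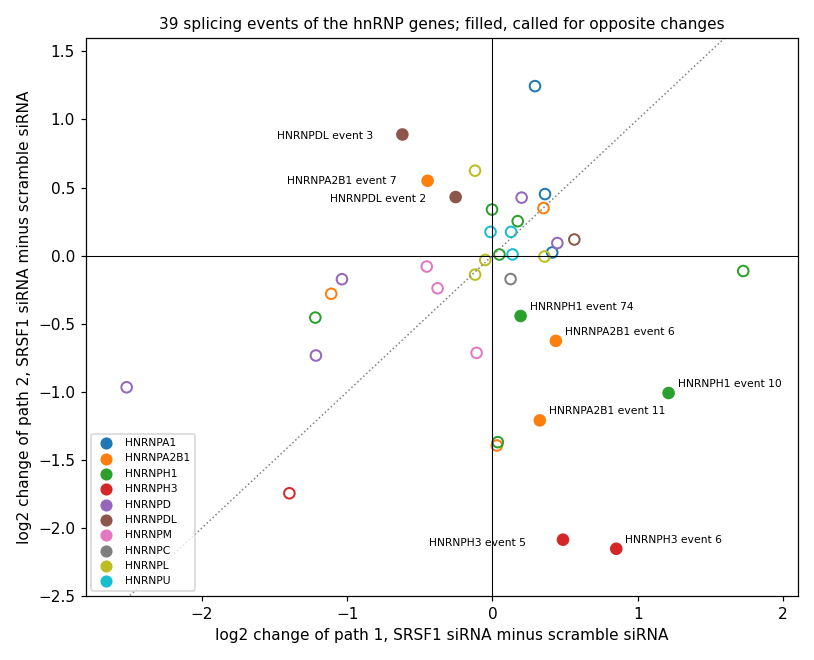
Log2 change of path 1 (horizontal) against that of path 2 (vertical) in the 39 tested events, SRSF1 siRNA minus scramble siRNA; filled points were called for opposite changes and lie at the upper left or lower right of the axes. HNRNPH1 event 10 (1.21 and -1.01) and HNRNPH3 event 6 (0.85 and -2.15) lie far from the dotted line of equal change, and HNRNPD event 8 (-2.52 and -0.97) is low on both axes.

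HNRNPH1 event 10 had the smallest adjusted p of the hnRNP events, 5.8e-17. Its path 1 was 6.37, 6.50 and 6.84 with scramble siRNA, 6.69, 6.94 and 6.92 with Lipofectamine, and 7.93, 7.89 and 7.53 with SRSF1 siRNA. Its path 2 was 8.14, 8.17 and 8.0 with scramble siRNA, 8.34, 8.27 and 8.32 with Lipofectamine, and 7.11, 7.21 and 6.96 with SRSF1 siRNA. The SRSF1 siRNA samples stood apart from all 6 control samples in both paths, in opposite directions. Path 1 rose by 1.21 and path 2 fell by 1.01 (SE 0.10 each), with adjusted p-values for the single paths of 2.2e-10 and 6.9e-09, while the reference of the event had a change of -0.34. The other event of HNRNPH1, number 74, rests on path 2, which fell by 0.44 (adjusted p = 9.4e-04). Path 1 had a change of 0.19 (adjusted p = 0.15), and the event's adjusted p of 0.019 rose to between 0.056 and 0.092 when scramble siRNA sample 1 or 3 or SRSF1 siRNA sample 1 or 2 was left out.

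HNRNPH3 had events 5 and 6, which share 1 reference signal. In event 6, path 1 was 6.26, 5.77 and 5.73 with scramble siRNA and 7.21, 6.64 and 6.46 with SRSF1 siRNA, and path 2 was 10.75, 10.86 and 10.67 and then 8.35, 8.73 and 8.73. Path 1 rose by 0.85 and path 2 fell by 2.15 (SE 0.14 each, adjusted p of the event 3.4e-10). The 3 scramble siRNA samples overlapped with no SRSF1 siRNA sample in either path. In event 5, path 1 was higher by 0.49, while path 2 fell by 2.09 (adjusted p of the event 4.2e-06). The shared reference was 11.23, 11.28 and 11.19 with scramble siRNA and 9.62, 9.55 and 9.54 with SRSF1 siRNA, a change of -1.67, so path 1 of both events rose while the reference fell. With scramble siRNA, path 1 had a mean of 5.92 in event 6 and of 6.04 in event 5, close to the threshold of 5.77.

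HNRNPDL event 3 was called with no call for the gene signal. Path 1 was 10.92, 10.88 and 10.91 with scramble siRNA and 10.36, 10.31 and 10.19 with SRSF1 siRNA. Path 2 was 7.68, 7.78 and 7.56 and then 8.58, 8.53 and 8.57. Path 1 fell by 0.62 and path 2 rose by 0.89 (SE 0.08 each, adjusted p of the event 1.6e-13), and neither path overlapped between these conditions. In HNRNPDL event 2, path 2 rose by 0.43 and path 1 had a change of -0.25 that was not called alone (adjusted p = 0.094). The event's adjusted p of 8.2e-03 became 0.051 without scramble siRNA sample 1 and 0.24 without SRSF1 siRNA sample 3.

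HNRNPA2B1 events 6, 7 and 11 were called. In event 6, path 1 was 7.31, 7.47 and 7.51 with scramble siRNA and 8.12, 7.84 and 7.64 with SRSF1 siRNA, and path 2 was 10.88, 10.83 and 10.76 and then 10.23, 10.13 and 10.23. Path 1 rose by 0.44 and path 2 fell by 0.63 (SE 0.10 each, adjusted p of the event 9.9e-07). The Lipofectamine samples of path 1, at 7.64, 7.86 and 7.43, overlapped with those of SRSF1 siRNA. In event 7, path 1 fell by 0.45 and path 2 rose by 0.55 (adjusted p of the event 2.9e-06). In event 11, path 1 was higher by 0.33, while path 2 fell by 1.21 (adjusted p of the event 1.7e-03). No control sample was over the threshold of 5.77 in path 1 of event 11, and no scramble siRNA sample in path 2 of event 7. Event 11 was thus tested only through SRSF1 siRNA samples, so its call is no support. These 3 events are linked to others of the gene by shared signals. Path 1 of event 7 is the reference of event 16, and the reference of event 6 is path 1 of event 16.

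Of the 9 events, those without a call for both single paths were HNRNPDL event 2 and HNRNPH1 event 74. When the one-sided p-values of an event were combined by their maximum in place of their sum, 6 of the 9 stayed called, and HNRNPA2B1 event 11 (adjusted p = 0.42), HNRNPDL event 2 (0.75) and HNRNPH1 event 74 (1) were lost.

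**Figure D4:**
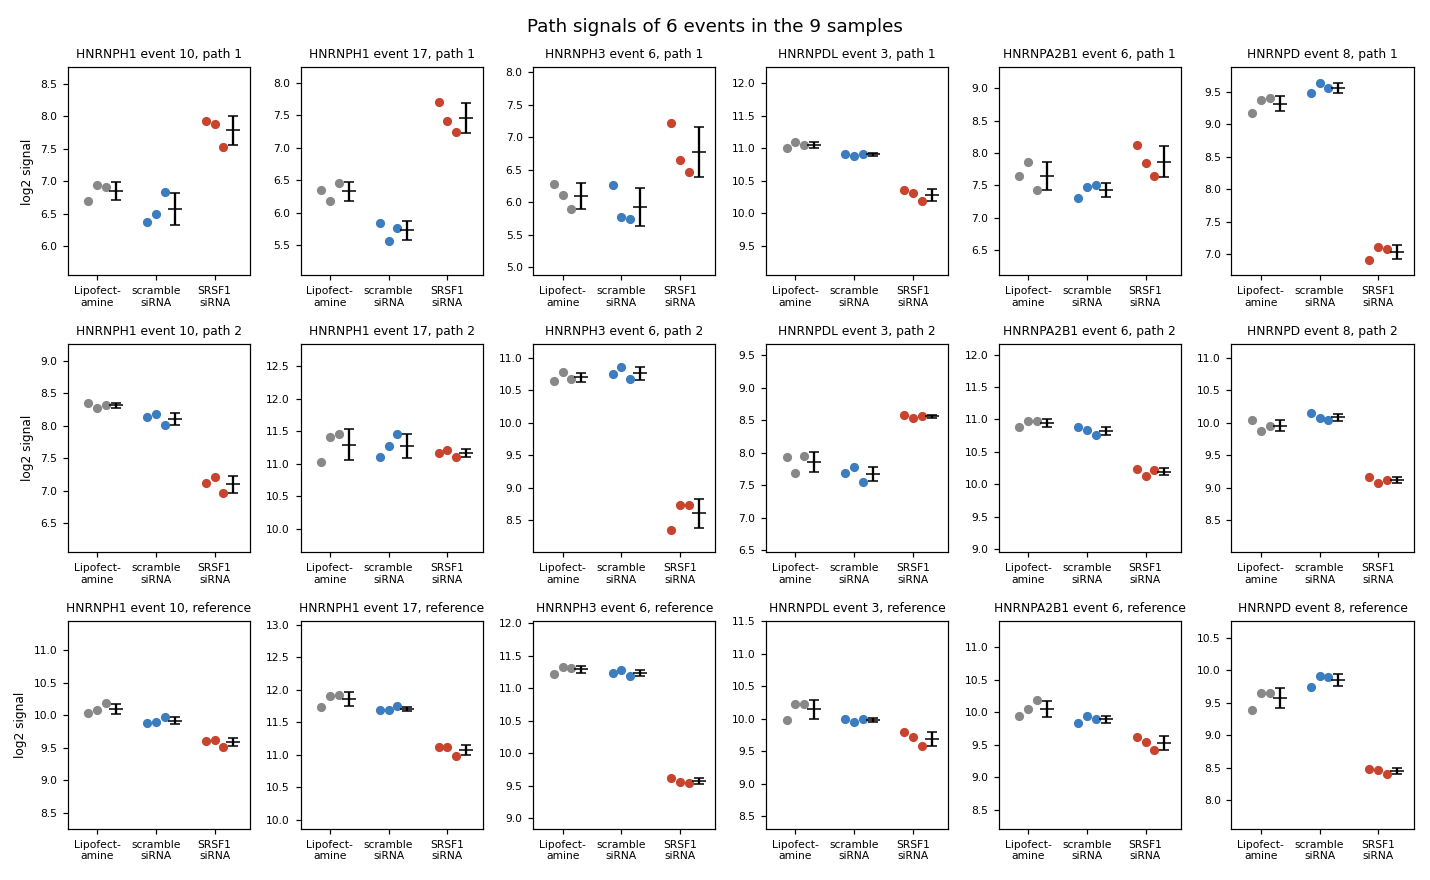
Log2 signal of path 1, path 2 and the reference of 6 events in the 9 samples; points are samples, black bars are the mean with its SD, and every panel spans the same range. Path 1 and path 2 moved in opposite directions with SRSF1 siRNA in HNRNPH1 event 10, HNRNPH3 event 6, HNRNPDL event 3 and HNRNPA2B1 event 6, only path 1 moved among the alternative paths in HNRNPH1 event 17, and both fell in HNRNPD event 8.

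Opposite changes were one pattern among several, so each path was also tested alone. Of the 78 alternative paths of the tested events, 48 were called in SRSF1 siRNA minus scramble siRNA, 23 higher and 25 lower, beside 20.9% higher and 16.2% lower among the 51610 paths of all tested events. These counts hold the called paths of HNRNPA1 events 15 and 16, HNRNPA2B1 event 11 and HNRNPD event 3. Those events were tested only through SRSF1 siRNA samples, so their calls are no support. The median absolute log2 change was 0.36 over the hnRNP paths and 0.16 over all paths. Both paths were called in opposite directions in 7 of the 39 events (3.94% of all tested events) and in the same direction in 9 (14.5%), only 1 path was called in 16 (37.4%), and neither in 7 (44.2%). Of the 39 references, 6 were called higher, beside 21.3% of all references, and 20 lower, beside 21.7%. The 39 held 35 distinct signals, 5 higher and 18 lower. Those called higher include the reference of HNRNPA1 events 15 and 16, which passed the filter only through SRSF1 siRNA samples. A log2 change of 1 or more in size was called in 16 paths, beside 3.91% of all paths. They lay in HNRNPA1, HNRNPA2B1, HNRNPD, HNRNPH1 and HNRNPH3. Among them, path 2 of HNRNPA1 event 16 and path 2 of HNRNPA2B1 event 11 lay in events tested only through SRSF1 siRNA samples.

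**Figure D5:**
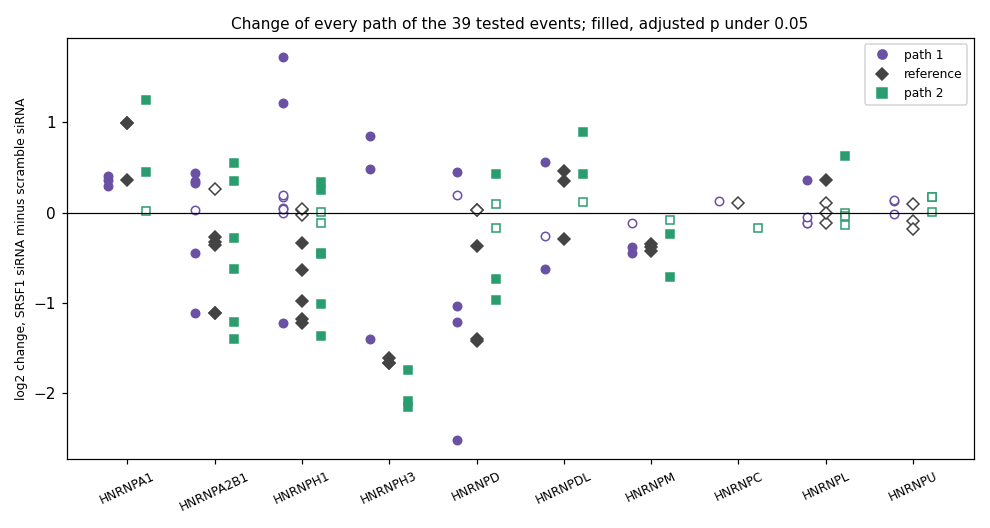
Log2 change, SRSF1 siRNA minus scramble siRNA, of path 1, the reference and path 2 of every tested event, by gene; filled symbols have an adjusted p under 0.05, and shared signals appear once for each event that holds them. Within HNRNPH1 the values run from -1.37 to 1.73 and within HNRNPD from -2.52 to 0.45, while all paths of HNRNPM lie below 0 and no path of HNRNPC or HNRNPU was called.

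HNRNPD had the largest fall of a path and no event called for opposite changes. Path 1 of its event 8 was 9.48, 9.63 and 9.55 with scramble siRNA, 9.18, 9.37 and 9.40 with Lipofectamine, and 6.91, 7.11 and 7.08 with SRSF1 siRNA. The SRSF1 siRNA samples lay far below the 6 others. The path fell by 2.52 (SE 0.08, adjusted p = 1e-18), a signal 5.73-fold lower, and path 2 of the same event fell by 0.97. Path 1 also fell by 1.22 in event 13 and by 1.04 in event 18, where path 2 fell by 0.73 and had a change of -0.17 (adjusted p = 0.066). Against these, path 2 of event 2 rose by 0.43, path 1 of event 3, over the threshold only in SRSF1 siRNA samples, rose by 0.45, and the reference that these events share had a change of 0.03 (adjusted p = 0.87). Its 5 tested events had 5 paths lower and 2 higher.

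HNRNPH1 had 22 distinct signals in 8 tested events, with the widest range of changes of the 10 genes, from -1.37 to 1.73. Path 1 of event 17 was 5.85, 5.57 and 5.77 with scramble siRNA, 6.35, 6.18 and 6.46 with Lipofectamine, and 7.70, 7.42 and 7.25 with SRSF1 siRNA. No sample of 1 condition lay within the range of another. The path rose by 1.73 (SE 0.11, adjusted p = 1.2e-12) from a scramble siRNA mean of 5.73, just under the threshold, while path 2 had a change of -0.11 (adjusted p = 0.47) and the reference one of -0.64. Path 2 of event 75 fell by 1.37 from 8.70, 8.65 and 8.65 to 7.35, 7.26 and 7.28, and path 1 of that event had a change of 0.04. Path 1 of event 24 fell by 1.22 and path 2 by 0.46, and the signal of that path 1 is also the reference of event 25, in which path 2 rose by 0.25 (adjusted p = 0.032). Events 42 and 47 moved little, with 1 of 4 paths called, path 2 of event 47 at 0.34.

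In HNRNPH3, path 2 of events 5 and 6 and both paths of event 4 changed by more than 1. Event 4 had path 1 at 9.79, 9.92 and 9.71 with scramble siRNA and 8.58, 8.52 and 8.13 with SRSF1 siRNA, and path 2 at 8.28, 8.65 and 8.15 and then 6.70, 6.57 and 6.58. Path 1 fell by 1.40 and path 2 fell by 1.75 (SE 0.12 each), together with the reference at -1.61. The gene thus held an event whose paths fell together beside 2 with opposite changes. In the 3 events that were not tested, the reference of event 2 was under the threshold and had a change of -0.11. Without it, an alternative chosen after seeing the data, the gene signal fell by 1.36.

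In HNRNPA2B1, path 2 of event 12 fell by 1.40, path 2 of event 11 by 1.21 and path 1 of event 9 by 1.11. Path 2 of event 12 was 10.31, 10.21 and 10.42 with scramble siRNA and 8.96, 8.82 and 8.97 with SRSF1 siRNA, and path 1 of that event had a change of 0.03 (adjusted p = 0.85). In event 2 both paths rose by 0.35, with adjusted p-values of 0.022 each, but the samples of the 2 conditions overlapped in path 1. Against Lipofectamine, path 1 of that event had a change of 0.11 (adjusted p = 0.53) and path 2 one of 0.48 (2.2e-03). Of the 16 distinct signals of HNRNPA2B1 in tested events, 7 had a positive change and 9 a negative one.

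In HNRNPA1 no signal of a tested event had a negative change. Path 2 of event 16 was 6.32, 6.38 and 6.19 with scramble siRNA, 6.35, 6.26 and 6.23 with Lipofectamine, and 7.55, 7.55 and 7.53 with SRSF1 siRNA. It rose by 1.24 (SE 0.09, adjusted p = 3.4e-12), 2.37-fold, beside a reference that rose by 1.00 and a path 1 that rose by 0.29. The reference was below 5.77 in all 6 control samples and above it in all 3 SRSF1 siRNA samples. It passed the filter only through these, so its separation supports nothing. The path 2 signal also separated the SRSF1 siRNA samples from all controls. Event 16 was tested only through that reference, so this is no support either. Of the 6 alternative paths of HNRNPA1, 5 were called higher, beside 20.9% of all paths, and path 2 of event 14 had a change of 0.02 (adjusted p = 0.90). In path 1 of event 16 the SRSF1 siRNA and scramble siRNA samples overlapped. Event 15 was likewise tested only through its reference in SRSF1 siRNA samples, so the called paths of events 15 and 16 are no support. Path 1 of event 14 rose by 0.41 (adjusted p = 7.0e-03). Against Lipofectamine, 1 of the 6 paths was called higher, path 2 of event 16, beside 18.1% of all paths. The events of HNRNPA1 share signals, since the reference of event 14 is path 1 of event 15 and events 15 and 16 have the same reference.

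The other genes had smaller changes. In HNRNPDL event 12, path 1 rose by 0.56 and path 2 had a change of 0.12, and the reference rose by 0.46. HNRNPM had 4 of 6 paths lower, led by path 2 of event 24 at -0.71, and none higher. HNRNPL had 2 of 8 paths higher, path 2 of event 4 at 0.62 (SE 0.21) and path 1 of event 6 at 0.36 (SE 0.11), and its reference in event 11 rose by 0.37. Path 2 of HNRNPL event 4 was 6.09, 5.35 and 6.67 with scramble siRNA and 6.81, 6.95 and 6.21 with SRSF1 siRNA, so those samples overlapped. HNRNPC had 1 of its 4 events tested, and neither its paths nor the 6 paths of HNRNPU were called or had an unadjusted p under 0.05.

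Between scramble siRNA and Lipofectamine, limma called 0 of the 39 events, beside 0.275% of all events tested, and 1 event, in HNRNPA2B1, had an unadjusted p under 0.05. The same count was 0 with the replicate block, and it was 1 when the test was on path 1 change minus path 2 change. Singly, 0 paths were called higher and 2 lower, beside 4.47% and 4.07% of all paths. Both were HNRNPH1 paths that also changed with SRSF1 siRNA. Path 1 of event 17 fell by 0.60 (SE 0.11, adjusted p = 7.8e-04), and path 2 of event 75 fell by 0.25 (SE 0.06, adjusted p = 0.012). The latter was not called without Lipofectamine sample 3 (adjusted p = 0.12) or scramble siRNA sample 2 (0.067), and path 1 of HNRNPH1 event 10 was called without scramble siRNA sample 3, at -0.41 (0.012). The references of HNRNPD events 8 and 13 were higher by 0.28 and 0.27. The sample numbers paired these conditions, and with the sample number as a replicate block 5 paths were called, among them path 1 of HNRNPD event 8 at 0.24 (adjusted p = 0.020).

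For SRSF1 siRNA minus Lipofectamine, 7 of the 39 events were called, beside 6.08% of all events. They were HNRNPA2B1 events 6 and 7, HNRNPDL events 2 and 3, HNRNPH1 event 10 and HNRNPH3 events 5 and 6, each with the same direction as against scramble siRNA. HNRNPH1 event 10 had changes of 0.93 and -1.22 in path 1 and path 2 (adjusted p of the event 1.1e-15), and HNRNPDL event 3 had -0.77 and 0.71 (2.9e-15). HNRNPH3 event 6 had 0.68 and -2.09 (1.1e-07). In these 3 events alone both paths were called singly, and the count of 7 fell to 3 without Lipofectamine sample 3 and to 4 without SRSF1 siRNA sample 1. HNRNPDL event 2 was also lost without Lipofectamine sample 2 or SRSF1 siRNA sample 2 or 3, with adjusted p-values from 0.057 to 0.46. Singly, 12 paths were called higher and 25 lower, beside 18.1% and 14.6% of all paths. These hold called paths of HNRNPA1 event 16, HNRNPA2B1 event 11 and HNRNPD event 3, which were tested only through SRSF1 siRNA samples. HNRNPH1 event 17 had a path 1 change of 1.13 here, beside 1.73 against scramble siRNA, and HNRNPD event 8 one of -2.28, beside -2.52.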

How the data were processed

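RNA of A549 cells was measured on HTA 2.0 arrays. The authors mapped probes to the human transcriptome (Ensembl 74 in the methods, Ensembl 75 in a supplement) with Bowtie 2.0, dropped those hitting more than 3 genes, normalized all arrays together and deposited log2 signals, 1 per path and hybridization, summarized by RMA (aroma.affymetrix 3.0.0). These were averaged over the 3 hybridizations of a sample and fitted with limma 3.58.1 in R 4.3.3, 3 samples in each of 3 conditions. The number after "sample" in the titles stood for the biological replicate, which the sources do not settle. For events, the 3 paths entered the methods' design with a shared spread, and one-sided p-values of path 1 and path 2 were added, and this sum was compared with the triangular distribution. Genes and events passed a filter at the 25% quantile of the highest reference signals (log2 signal of 5.77). P-values were adjusted by Benjamini-Hochberg over all genes, events or paths tested. The functions were tested on simulated data.

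Deviations of samples with the same number correlated, across events, at 0.28, 0.29 and 0.40 between scramble siRNA and Lipofectamine and at 0.19, 0.11 and 0.17 between SRSF1 siRNA and Lipofectamine. Those were taken as paired, but no main fit used the pairing, which entered only the alternative with the replicate block. Between SRSF1 siRNA and scramble siRNA the correlations were 0.13, 0.10 and 0.04, and those conditions were not taken as paired.

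The named items were the 10 genes, their events called for opposite changes in SRSF1 siRNA minus scramble siRNA, and their paths called with a log2 change of 1 or more in size; other paths named in the text were chosen after their values were seen. Members and lists were chosen with earlier results of these data known. Names came with the list of members. Of 16733 gene IDs, 0 matched the reference table used here, so SRSF1, other hnRNP genes and cell type markers were not analysed here. No sequence of a probe or path was used.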

Additional observations from a re-analysis of the deposited data

How the results depend on the processing

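Over the alternatives run, 0 of the called changes of single genes, events or paths turned direction. Of 1893 values, called or not, 1836 kept their side of the threshold, 38 lost and 19 gained a call. These values cover the 10 genes, the events called and the paths called with a log2 change of 1 or more in size, in all 3 comparisons. Those events and paths were chosen by their calls for SRSF1 siRNA minus scramble siRNA, so the count does not speak for the others. For SRSF1 siRNA minus scramble siRNA, 6 genes were called in each fit but that at the 50% quantile, where 5 were and HNRNPA1 was not tested. With the median of the reference paths the 6 held HNRNPL in place of HNRNPA2B1. Counting each distinct reference signal once, or only those over the threshold, both chosen after seeing the data, changed no call of the 10 genes. Calls of events were 14 with no filter, 5 with the filter at the 50% quantile and 22 when path 1 change minus path 2 change was tested, in place of 9. Called paths were 28 at the 50% quantile in place of 48. For SRSF1 siRNA minus Lipofectamine the events called were 11 with no filter, 3 when the p-values of an event were combined by their maximum and 20 with that difference, in place of 7, and 24 paths were called at the 50% quantile in place of 37. Leaving out 1 sample gave 3 to 8 events there. The causes of these shifts were not tested. Paths under the threshold of expression limited what could be tested, and events under the 50% quantile gave no value there.

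For scramble siRNA minus Lipofectamine, 3 genes were called with the 27 hybridizations as arrays, 4 with the replicate number as the biological replicate and 0 with the mean over all 3 paths, in place of 1, and leaving out 1 sample gave 0 to 1. Events were 1 with the replicate number as biological replicate and 1 with the difference, in place of 0. Paths were 8 and 14 with those hybridizations and that replicate number, in place of 2, and 1 to 4 when 1 sample was left out. With the replicate block, 5 paths were called in place of 2, and events were 0, 10 and 7 in the 3 comparisons in place of 0, 9 and 7. Over all genes, the events called for SRSF1 siRNA minus scramble siRNA were 4039 with no filter, 747 at the 50% quantile, 409 with the maximum and 7928 with the difference, in place of 2156. For SRSF1 siRNA minus Lipofectamine they were 2988, 573, 338 and 7000, in place of 1569. For the controls they were 2 to 779 in place of 71, and genes called were 1525 to 5196 in place of 2527.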
